A study of Felis catus with 6 samples.

Results

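FOXP3, IL2RA, LRRC32 and IL10, 3 genes of regulatory T cells and the cytokine IL10, were examined in lesions of feline chronic gingivostomatitis (FCGS) and healthy oral mucosa of cats. They are 4 of the 21529 Ensembl identifiers in the deposited files: ENSFCAG00000003823 (FOXP3), ENSFCAG00000005794 (IL2RA), ENSFCAG00000012007 (LRRC32) and ENSFCAG00000013515 (IL10). The genes were chosen by symbol. The files carry no symbols, so each was found by matching its tissue values in the study's supplementary table to a single identifier, which named 1929 identifiers in all. Since that table is limited to genes with a 2-fold or larger difference, the direction of each of the 4 genes was given with its name. A gene without a name here was not necessarily unchanged or undetected.

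Regulatory T cells are lymphocytes that restrain other immune cells, and mucosal tissues hold them in health as well as in inflammation. FOXP3 is the transcription factor that defines them. IL2RA encodes CD25, the alpha chain that gives the interleukin-2 receptor its high affinity, and is also made by other activated lymphocytes. LRRC32 encodes GARP, a surface protein that holds latent TGF-beta on activated regulatory T cells. In human and mouse it is found on platelets and endothelium too. IL10 is a cytokine that dampens antigen presentation and inflammatory gene expression, and it is made by regulatory T cells, other T cells, B cells and macrophages.

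The diseased tissue was inflamed FCGS mucosa, labelled diseased, and its counterpart was adjacent mucosa of the same animal, labelled healthy. There were 3 cats, named Bart, Jerome and Sadie in the labels, with 1 library of each tissue per cat, 6 libraries in all. All 3 cats had FCGS, had no teeth, received buprenorphine for pain and received no immunosuppressive therapy or antibiotics, so healthy mucosa here is unaffected mucosa of a diseased cat. Breed, sex and age of these 3 cats are not given in the labels. The biopsies were full-thickness, and polyadenylated RNA of all their cells was sequenced together, so more cells of a type and more RNA per cell cannot be told apart. The study also labelled FOXP3 and CD25 proteins in sections of FCGS mucosa. Those sections are not analysed here and cannot be paired with these libraries.

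Values are FPKM (fragments per kilobase of transcript scaled to the size of the library), and the sum over all identifiers was 1382122 to 1903773 per library. Read totals are not in the files. From the steps between values under 0.1 FPKM, relative depth spanned 1.00 (lesion of Sadie) to 1.77 (healthy mucosa of Bart), provided that nothing but reads entered the scaling. The cat Bart stood apart in tissue content: its lesion had the highest summed FPKM of 10 named endothelial genes and the lowest lesion sum of 11 named T cell genes. Skeletal muscle RNA was high in 3 libraries, both of Sadie and the lesion of Jerome, where the muscle gene CKM measured 716 to 1234 FPKM against at most 1.33 FPKM in the other 3. The epithelial keratin KRT4 was listed at 0 in healthy mucosa of Jerome and of Sadie. Results below are therefore also given without single libraries and cats where this changes them.

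IL10 and LRRC32 rose in FCGS lesions. IL2RA and FOXP3 were higher in every lesion than in every healthy library. Neither passed the test across all genes with tissue as the only term, which ignores the pairing by cat. FOXP3 passed with the cat as a block (limma adjusted p = 0.027). Differences are in log2 FPKM with values below 1 raised to 1, which understates the change of genes near that floor, and were tested with limma over 13327 identifiers with Benjamini-Hochberg adjustment. Of the 4 genes, 2 passed at an adjusted p under 0.05, where 5.31% of all identifiers tested were called higher in lesions and, among the 1292 named with a rise, 31.5% were. When the cat was added as a block 3 of the 4 passed, all but IL2RA, against 12.2% of all identifiers and 68.9% of those named with a rise. Lesions and healthy mucosa did not overlap in any of the 4, as in 16.7% of all identifiers and 68.0% of those named with a rise. Since a name required a difference, these shares say nothing particular about the 4 genes.

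**Figure D1:**
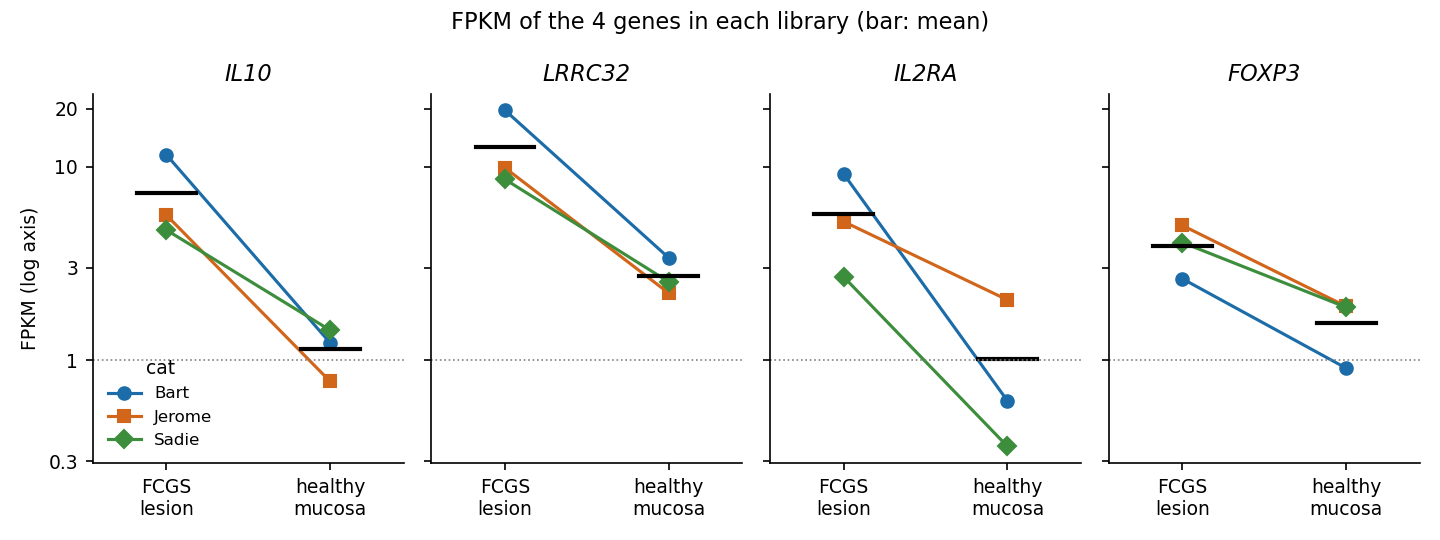
FPKM (vertical log axis) of IL10, LRRC32, IL2RA and FOXP3 in FCGS lesions and healthy mucosa, with 1 line per cat and a black bar at the mean of the 3 libraries; the dotted line is the floor of 1 FPKM. Every lesion lies above every healthy library in all 4 genes, and the lesion of Bart is the highest in IL10, LRRC32 and IL2RA (11.5, 19.6 and 9.18 FPKM) but the lowest lesion in FOXP3 (2.64 FPKM).

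IL10 measured 11.5, 5.62 and 4.71 FPKM in the lesions of Bart, Jerome and Sadie, against 1.23, 0.777 and 1.43 FPKM in their healthy mucosa. The healthy libraries lay within 1.84-fold of each other, whereas the lesion of Bart stood 2.45-fold above that of Sadie. Lesions averaged 7.29 ± 3.71 FPKM and healthy mucosa 1.14 ± 0.334 FPKM (SD, n = 3 cats for each tissue). The log2 difference was 2.48 ± 0.40 (standard error), or 5.58-fold, with a limma adjusted p of 0.024, which placed IL10 among the most strongly raised genes, with 2.30% of tested identifiers above it. Bart had a log2 difference of 3.23, Jerome of 2.49 and Sadie of 1.72. The level remained modest even in lesions, at percentile 36.9 of the tested identifiers by lesion mean.

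LRRC32, the GARP gene, had the highest FPKM of the 4 in 6 of 6 libraries. It measured 19.6, 9.87 and 8.60 FPKM in the lesions of Bart, Jerome and Sadie, against 3.38, 2.22 and 2.54 FPKM in their healthy mucosa. Healthy values were the tightest of the 4 genes, within 1.52-fold, and LRRC32 was the only one of the 4 with at least 1 FPKM in all 6 libraries. Lesions averaged 12.7 ± 6.00 FPKM and healthy mucosa 2.71 ± 0.599 FPKM (SD, n = 3 per tissue). On the log2 scale they differed by 2.15 ± 0.39 (standard error, limma adjusted p = 0.028). The differences by cat, 2.53 in Bart, 2.15 in Jerome and 1.76 in Sadie, were in the same order as those of IL10.

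With tissue as the only term, the calls of IL10 and LRRC32 rested on having all the libraries of Jerome and Sadie. Fits that left out a library or a cat were not run with the cat as a block. In fits that left out 1 library, the adjusted p from limma was 0.051 for IL10 and 0.060 for LRRC32 without the lesion of Jerome, 0.075 and 0.089 without its healthy mucosa, 0.085 and 0.089 without the lesion of Sadie, and 0.078 and 0.090 without its healthy mucosa. Without the healthy mucosa of Bart IL10 was at 0.051 and LRRC32 kept its call at 0.048. Without the lesion of Bart, the highest of all, both kept their calls (0.035 each), with log2 differences of 2.09 for IL10 and 1.79 for LRRC32. Limma called 0 of all 13327 identifiers higher in lesions without the lesion of Sadie (3276 at an unadjusted p under 0.05) and 1 without its healthy mucosa. Without the cat Jerome or the cat Sadie it called 0 (2436 and 2139 identifiers at an unadjusted p under 0.05), with IL10 at 0.167 and 0.256 and LRRC32 at 0.184 and 0.257. The unadjusted p of IL10 and LRRC32 stayed under 0.05 in all 9 fits that left out a library or a cat.

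IL2RA measured 9.18, 5.20 and 2.69 FPKM in the lesions of Bart, Jerome and Sadie, against 0.617, 2.05 and 0.358 FPKM in their healthy mucosa. It was the most variable of the 4, with lesions 3.41-fold and healthy libraries 5.72-fold apart, and the lesion of Sadie lay close above the healthy mucosa of Jerome. Only 1 healthy library reached 1 FPKM, so IL2RA entered the test mainly through the lesions. Lesions averaged 5.69 ± 3.27 FPKM and healthy mucosa 1.01 ± 0.911 FPKM (SD, n = 3 per tissue), and the log2 difference of 1.99 ± 0.54 (standard error) had an adjusted p of 0.064 in limma and of 0.0501 with the cat as a block. Because of the floor, the value in Sadie is a log2 difference of 1.43 although the unfloored FPKM differed 7.52-fold in that cat, and in Bart 14.9-fold.

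FOXP3 was the lowest of the 4 by mean lesion level and differed least, but most evenly, between the tissues. It measured 2.64, 4.97 and 4.06 FPKM in the lesions of Bart, Jerome and Sadie, against 0.910, 1.90 and 1.88 FPKM in their healthy mucosa. Bart had the lowest value in each tissue, the reverse of its place in the lesions for the other 3 genes. Lesions averaged 3.89 ± 1.18 FPKM and healthy mucosa 1.56 ± 0.564 FPKM (SD, n = 3 per tissue). Bart had a log2 difference of 1.40, Jerome of 1.39 and Sadie of 1.11, and their mean of 1.30 ± 0.39 (standard error) had a limma adjusted p of 0.080. With the cat as a block, which removes the low level of Bart in both tissues, the standard error was 0.21 and FOXP3 passed (adjusted p = 0.027). With tissue as the only term, FOXP3 also passed without the cat Bart (limma adjusted p = 0.041).

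The 4 genes did not keep fixed proportions between lesion and healthy mucosa. Their summed FPKM was 42.9, 25.7 and 20.1 in the lesions of Bart, Jerome and Sadie, against 6.13, 6.94 and 6.20 in their healthy mucosa. IL10 ranked second in every lesion, whereas in healthy mucosa it was second in Bart, behind IL2RA and FOXP3 in Jerome and behind FOXP3 in Sadie. Relative to FOXP3, IL10 was 4.38, 1.13 and 1.16 times as high in these lesions, against 1.35, 0.409 and 0.762 times in healthy mucosa, a higher ratio in the lesion of each cat although the tissues overlapped. LRRC32 was 7.43, 1.99 and 2.12 times FOXP3 in lesions and 3.71, 1.17 and 1.35 times in healthy mucosa, again higher in the lesion of each cat. IL2RA to FOXP3 was higher in the lesion of Bart (3.48 against 0.678) and of Sadie (0.664 against 0.191) but not of Jerome (1.05 against 1.08). These ratios were chosen after the values were seen and carry no test.

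Markers of leukocytes, vessels and epithelium also differed between the biopsies. Summed over the named markers, T cell genes (11 of 15 named) reached 264 to 729 FPKM in lesions, against 74.6 to 207 FPKM in healthy mucosa, and B and plasma cell genes (8 of 12) reached 380 to 2174 FPKM in lesions, against 29.7 to 218 FPKM in healthy mucosa. Macrophage genes (6 of 10) summed to 278 to 411 FPKM in lesions, against 66.2 to 143 FPKM in healthy mucosa, and endothelial genes (10 of 12) to 884 to 2128 FPKM in lesions, against 215 to 472 FPKM in healthy mucosa. None of these 4 sums overlapped between the tissues. A name required a difference in the study, so this was partly fixed by the choice of names. Among all identifiers named with a rise, 68.0% did not overlap. Single T cell genes such as CD3E and CD8A did overlap. Of the 11 T cell genes, 1 passed limma with tissue as the only term and 11 with the cat as a block. Platelet genes (3 of 8 named) summed to 50.2 to 449 FPKM in lesions, against 7.26 to 80.5 FPKM in healthy mucosa, fibroblast genes (2 of 8) to 197 to 606 FPKM in lesions, against 68.8 to 147 FPKM in healthy mucosa, and none of the 6 mast cell genes had a name. Neutrophil genes (3 of 8 named) were dominated by S100A8, which epithelium also makes, and summed to 2007 to 16123 FPKM in lesions, against 5724 to 41379 FPKM in healthy mucosa. S100A8 was lower in the lesion of each cat, whereas CSF3R and CAMP were higher in each. CSF3R measured 291, 86.9 and 39.2 FPKM in the lesions of Bart, Jerome and Sadie. Their healthy mucosa measured 11.3, 11.8 and 0.276 FPKM (log2 difference 4.29, limma adjusted p = 0.065). CAMP had a log2 difference of 2.37 (limma adjusted p = 0.043). The platelet and neutrophil sums overlapped between the tissues. SELP made up most of the platelet sum, at 329, 99.8 and 48.0 FPKM in the lesions of Bart, Jerome and Sadie. TREML1 reached 1 FPKM in only 3 of the 6 libraries. ITGA2B was higher in the lesions of Bart and Jerome and lower in that of Sadie (1.41 against 2.07 FPKM). No named marker of the lists above, from T cells to neutrophils, was at 0 in any library. Epithelial genes (2 of 10 named) summed to 60.4 to 2648 FPKM in lesions, against 222 to 2593 FPKM in healthy mucosa. Of these, COL17A1, a hemidesmosome collagen of basal epithelium, fell, with 51.4, 114 and 42.7 FPKM in the lesions of Bart, Jerome and Sadie, against 504, 222 and 240.4 FPKM in their healthy mucosa (log2 difference -2.25, limma adjusted p = 0.038). KRT4 was divided between the cats, at 8.99, 2534 and 569 FPKM in the lesions, against 2089, 0 and 0 FPKM in healthy mucosa. The part of all these markers in the differences of the 4 genes was not tested beyond the following ratios.

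To ask whether the 4 genes differed by more than the T cells or vessels around them, each was divided by the geometric mean FPKM of the T cell receptor chains CD3D, CD3E and CD3G, or of the endothelial genes PECAM1, CDH5 and VWF, in the same library. The CD3 mean was itself 1.91 higher in lesions on the log2 scale and the endothelial mean 2.36 higher. FOXP3 was lower relative to CD3 in the lesion of each cat, at 5.58%, 5.59% and 2.78% of the CD3 mean in the lesions of Bart, Jerome and Sadie, against 7.33%, 5.96% and 6.43% in their healthy mucosa. The tissues did not overlap, by a log2 difference of -0.56 (exact permutation test, two-sided, p = 0.10, the smallest that 3 against 3 libraries allow, and 0.80 after adjustment over the 8 ratios). The difference was mainly in Sadie and was small in Jerome: without the lesion of Sadie it was -0.23, and relative to CD3E alone it was -0.12 (exact p = 0.80 for 3 against 3 libraries). Relative to CD3E alone, FOXP3 was lower in the lesions of Jerome and Sadie but not of Bart. In Bart the lesion was 2.90-fold above healthy mucosa for FOXP3 and 2.52-fold for CD3E.

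IL10, LRRC32 and IL2RA showed no common direction relative to CD3. IL10 stood at 24.4%, 6.33% and 3.23% of the CD3 mean in the lesions of Bart, Jerome and Sadie, against 9.90%, 2.44% and 4.90% in their healthy mucosa, so the ratio was higher in the lesions of Bart and Jerome and lower in that of Sadie. LRRC32 stood at 41.5%, 11.1% and 5.90% in the lesions, against 27.2%, 6.97% and 8.70% in healthy mucosa, with the same split between the cats. IL2RA stood at 19.4%, 5.86% and 1.85% in the lesions, against 4.97%, 6.44% and 1.23% in healthy mucosa, and was higher in the lesions of Bart and Sadie. Exact p-values were 0.60 for IL10, 0.70 for LRRC32 and 0.50 for IL2RA (3 against 3 libraries). Without the lesion of Bart the log2 difference changed sign in all 3, to -0.12 for IL10, -0.55 for LRRC32 and -0.047 for IL2RA, and that of LRRC32 was also below 0 (-0.14) without the healthy mucosa of Jerome.

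Relative to the endothelial genes, LRRC32 was nearly level in Bart and Jerome, at 6.84% and 10.1% of the endothelial mean in their lesions, against 5.97% and 9.50% in their healthy mucosa. In Sadie it was lower in the lesion, at 7.92% against 14.9%. The log2 difference over the 3 cats was -0.21 (exact p = 0.70). It was 0.24 for IL10 (exact p = 0.80), 0.36 for IL2RA (exact p = 0.80) and -1.01 for FOXP3 (exact p = 0.50), and FOXP3 was lower relative to these genes in the lesion of each cat. Without the healthy mucosa of Bart the sign turned for IL10 (-0.18) and IL2RA (-0.30), and without that of Sadie for LRRC32 (0.12). With values floored at 1 FPKM, IL2RA was at -0.37. With 3 cats, ratios that miss the threshold do not show that the genes moved with the vessels.

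**Figure D2:**
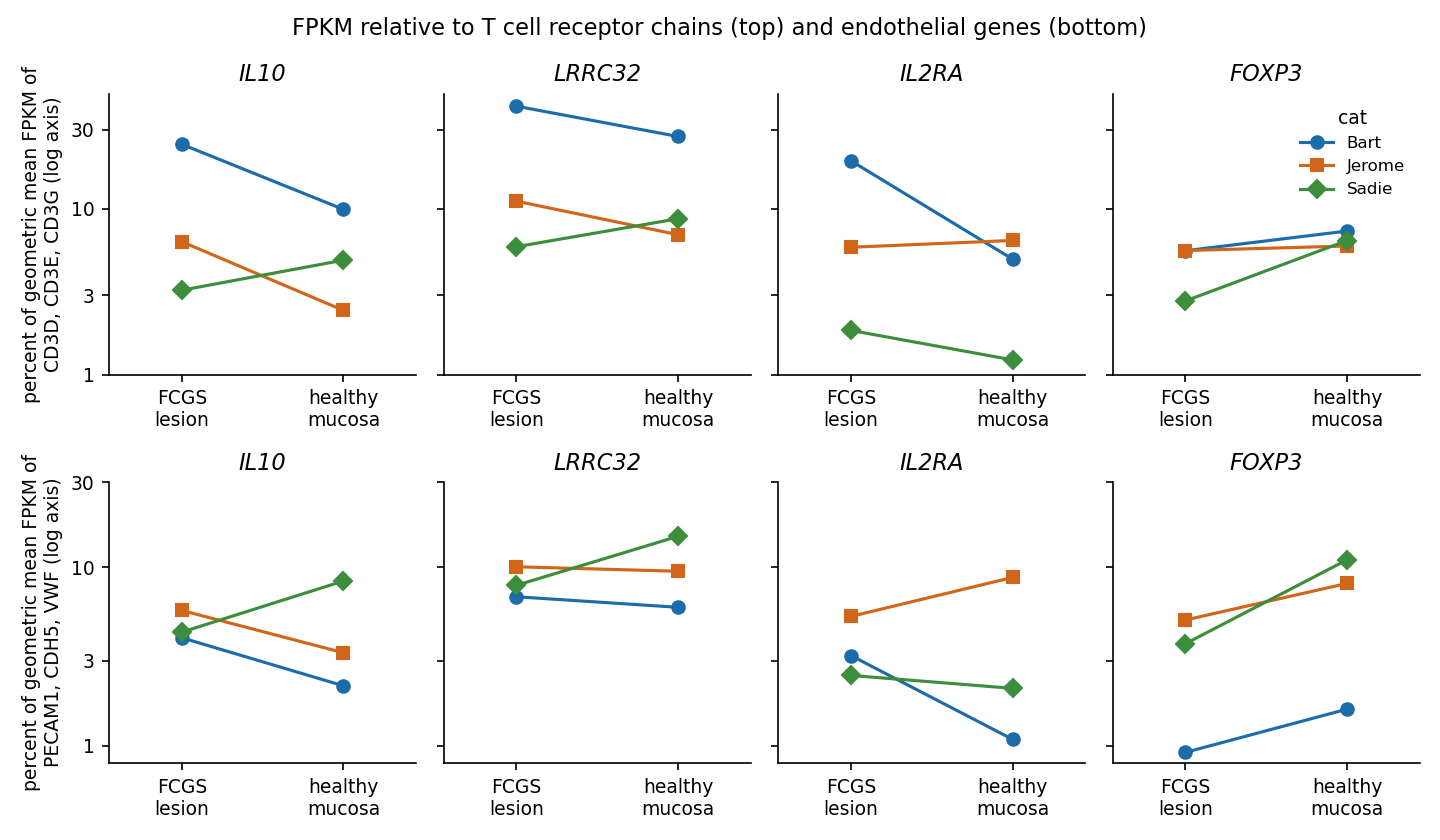
FPKM of each gene as a percent of the geometric mean of CD3D, CD3E and CD3G (top row) or of PECAM1, CDH5 and VWF (bottom row), on log axes, in FCGS lesions and healthy mucosa, with 1 line per cat. Only FOXP3 has the lesion below the healthy library in each cat in both rows, at 5.58% against 7.33% of the CD3 mean in Bart, 5.59% against 5.96% in Jerome and 2.78% against 6.43% in Sadie.

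Between cats, within one tissue, FOXP3 varied with T cell genes, and LRRC32 with endothelial and fibroblast genes and the 3 platelet genes that had a name. After the mean of each tissue was removed, FOXP3 correlated across the 6 libraries with 11 T cell genes at a median Pearson r of 0.96 (0.32 to 0.98) and with 10 endothelial genes at -0.90, where the median over all 1928 other named genes was 0.14. LRRC32 showed the reverse, with a median of 0.91 for the endothelial genes (0.75 to 0.94) and -0.87 for the T cell genes. The split was not particular to T cell genes. For 8 B and plasma cell genes the median was 0.75 with FOXP3, -0.89 with LRRC32 and -0.79 with IL10. LRRC32 stood at 0.96 for 3 platelet genes (0.77 to 0.99), SELP among them, and at 0.86 for 2 fibroblast genes. TREML1, also a platelet gene, reached 1 FPKM in only 3 of the 6 libraries. Which cells made the 3 platelet genes was not tested. IL10 lay nearer to LRRC32, at 0.87 for platelet, 0.71 for endothelial, 0.71 for fibroblast and -0.64 for T cell genes. IL2RA was highest with 3 neutrophil genes (0.71, 0.48 to 0.85), S100A8 among them, and 6 macrophage genes (0.64), and stood at -0.20 with T cell genes. Its healthy values in Bart and Sadie were raised to the floor of 1 FPKM, so both have the same deviation (-0.35). Among themselves, IL10 and LRRC32 correlated at 0.90 and FOXP3 and LRRC32 at -0.84. These are descriptions over 6 libraries that share 3 cats and 2 tissue means. The libraries of Bart alone hold 64.1% of the squared deviations of LRRC32, 63.8% of those of FOXP3, 56.4% of those of IL10 and 37.8% of those of IL2RA. FOXP3 also had a median r of 0.74 with 8 muscle genes, which are low in both libraries of Bart.

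**Figure D3:**
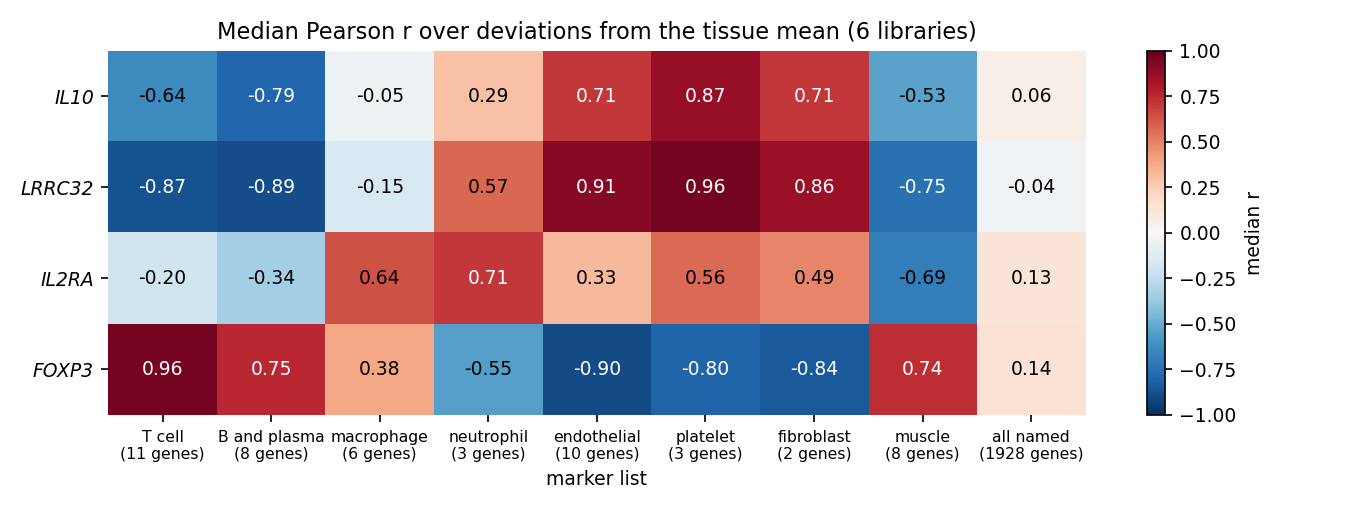
Median Pearson r of each gene (rows) with the named genes of each marker list (columns, number of genes in brackets) over deviations of log2 FPKM from the tissue means in 6 libraries; red is positive and blue negative. FOXP3 is red with T cell genes (0.96) and blue with endothelial genes (-0.90), and LRRC32 is the reverse (-0.87 and 0.91).

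The named genes most like each of the 4 by this measure, 5 being taken for each, were mixed. They were picked for the highest r among 1928 genes over 6 libraries, so values near 1 follow in part from the choice. For IL2RA they were FGR (r = 0.998), a Src family kinase of myeloid cells, CSF2RA (0.996), the alpha chain of the GM-CSF receptor, USP54, SIRPB2 and KCTD17. For LRRC32 they were CD9 (0.994), a tetraspanin, NCKAP1, TUBB1 (0.990), the beta-tubulin of platelets, DUSP14 and YOD1. All of these but TUBB1 were lower in lesions, CD9 by a log2 difference of -1.38. For IL10 they were EEPD1 (0.995), NPDC1, CPE, MEDAG and MMP2 (0.982), a gelatinase of stromal cells. For FOXP3 they included ARRDC2 (0.994), CRYGS, PLIN3 and SLC5A9, none of which is in the T cell list. A tissue difference opposite to that of the gene itself was found in 4 of the 5 for LRRC32 (log2 -1.05 to -2.12), 3 of the 5 for FOXP3 (-1.55 to -1.95), 1 of the 5 for IL2RA (USP54, -2.08) and 0 of the 5 for IL10.

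Most genes that act with these 4 had no name and were not examined. Of 64 other genes listed for IL2 receptor signaling, regulatory T cells, the IL10 pathway and TGF-beta activation, 18 had a name. Of these, 6 rose (5.31% of all identifiers and 31.5% of those named with a rise did) and 0 fell (6.61% of all identifiers did), at a median log2 difference of 1.81 beside -0.07 over all identifiers tested and 1.26 over all named ones. By limma 17 of the 18 had an unadjusted p under 0.05. In the fit blocked by cat 14 rose (12.2% of all identifiers and 68.9% of those named with a rise did) and 1 fell (11.1% of all did). The count of rises was 12 without the cat Bart, 1 without either library of Jerome, and 0 without either library of Sadie, without the cat Jerome or without the cat Sadie. A name required a difference in the study. The names also lean towards rises, with 1292 positive and 637 negative differences among the 1929, and the last 328 entries of the name table, which is ordered by fold and ends in falls, were not used here. The absence of falls and the positive median were thus partly fixed by the choice of names and are not independent evidence of a direction.

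**Figure D4:**
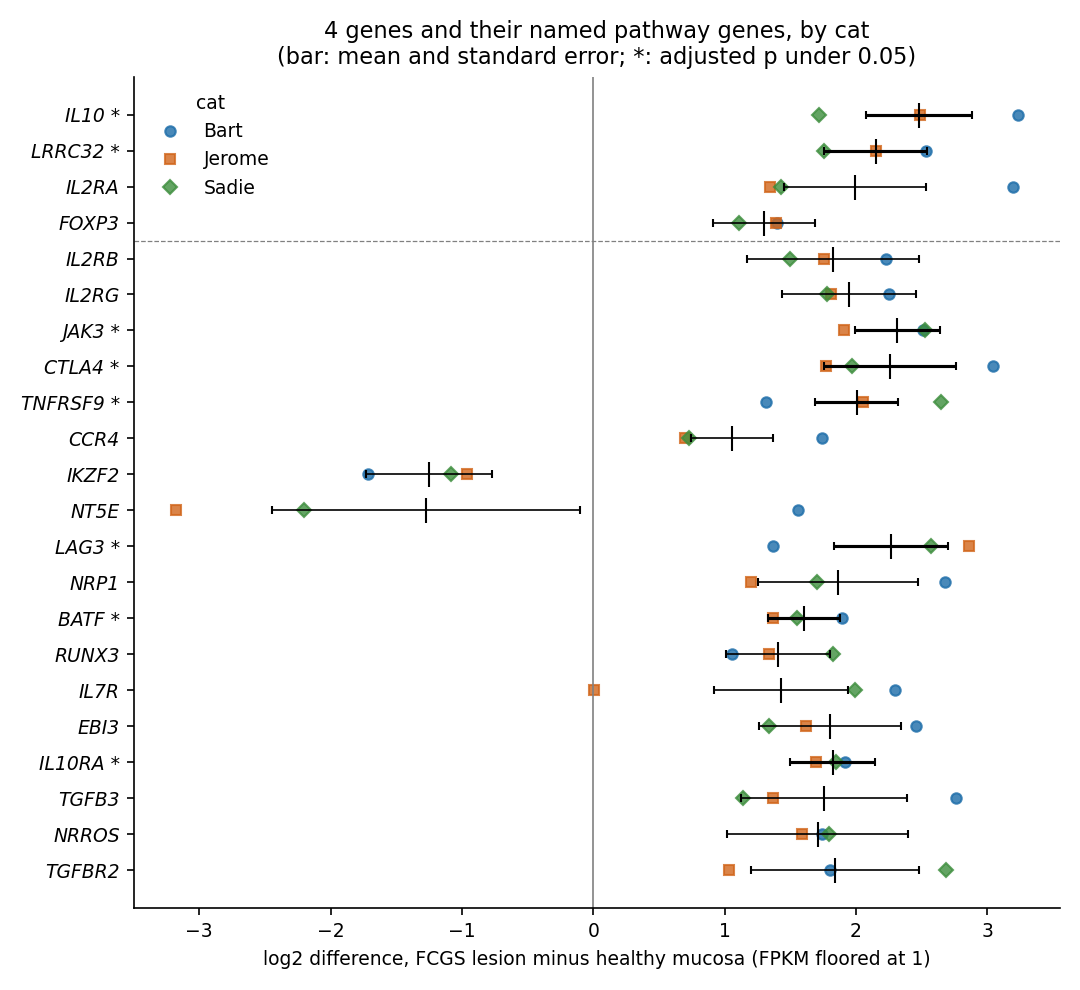
Log2 difference of FPKM, FCGS lesion minus healthy mucosa (horizontal axis), for IL10, LRRC32, IL2RA and FOXP3 (above the dashed line) and 18 named genes that act with them (below), with 1 point per cat, a bar for their mean and its limma standard error, and an asterisk at an adjusted p under 0.05. All points lie right of 0 except those of IKZF2, where all 3 cats are negative (mean -1.25), and of NT5E, where Jerome and Sadie are negative and Bart positive; IL7R in Jerome lies at 0.

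Of 12 listed genes of IL2 receptor signaling, 4 had a name. JAK3, the kinase bound to the common gamma chain, rose, with 30.1, 40.5 and 36.3 FPKM in the lesions of Bart, Jerome and Sadie, against 5.28, 10.8 and 6.29 FPKM in their healthy mucosa (log2 difference 2.32, adjusted p = 0.022). The call of JAK3 held in 5 of the 9 fits that left out a library or a cat. IL2RG, the common gamma chain, measured 27.5, 57.6 and 53.4 FPKM in the lesions, against 5.76, 16.5 and 15.6 FPKM in healthy mucosa (log2 difference 1.95, adjusted p = 0.059). IL2RB, the beta chain, measured 18.8, 50.0 and 44.3 FPKM in the lesions, against 4.02, 14.8 and 15.7 FPKM in healthy mucosa (log2 difference 1.83, adjusted p = 0.118). For these receptor chains Bart was the lowest in each tissue, as for FOXP3, whereas for the alpha chain IL2RA its lesion was the highest. IL2RG and IL2RB passed with the cat as a block (adjusted p = 0.022 each).

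Among 29 listed partners of regulatory T cells 11 had a name and 4 rose, 7 with the block, beside the 31.5% and 68.9% of identifiers named with a rise (5.31% and 12.2% of all). CTLA4, the inhibitory receptor for CD80 and CD86, measured 8.23, 12.1 and 9.04 FPKM in the lesions of Bart, Jerome and Sadie, against 0.691, 3.56 and 2.30 FPKM in their healthy mucosa (log2 difference 2.26, adjusted p = 0.041). Its limma call was lost with 0.1 FPKM added in place of the floor (adjusted p = 0.058), with no filter on low values (0.098), and without the lesion of Bart (0.063), the lesion or healthy mucosa of Jerome (0.105 and 0.066) or of Sadie (0.118 and 0.108). LAG3, an inhibitory receptor that binds MHC class II, rose by 2.27 on the log2 scale (adjusted p = 0.030), TNFRSF9, the costimulatory receptor 4-1BB, by 2.01 (adjusted p = 0.023) and BATF, a transcription factor of activated T cells, by 1.60 (adjusted p = 0.026). RUNX3, EBI3, NRP1, IL7R and CCR4 had positive differences of 1.06 to 1.86 with adjusted p-values of 0.069 to 0.117. With the cat as a block in limma, RUNX3, EBI3 and NRP1 passed (adjusted p = 0.026, 0.026 and 0.033). IL7R and CCR4 missed with the block too (0.128 and 0.080). EBI3 encodes a subunit of IL27 and IL35, and CCR4 is a chemokine receptor of skin-homing and regulatory T cells.

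IKZF2 went the other way from FOXP3. It encodes Helios, a transcription factor of many regulatory T cells that other cells also make. It measured 1.07, 2.89 and 2.81 FPKM in the lesions of Bart, Jerome and Sadie, against 3.50, 5.62 and 5.96 FPKM in their healthy mucosa, with no overlap. The log2 difference of -1.25 missed the test (adjusted p = 0.137 from limma), and IKZF2 fell with the cat as a block (adjusted p = 0.039). Relative to the CD3 mean it stood at 2.26%, 3.26% and 1.93% in lesions and 28.2%, 17.7% and 20.4% in healthy mucosa, a ratio chosen after its values were seen. This log2 ratio differed by -3.16, of which the larger part was the CD3 mean, itself 1.91 higher in lesions. Since other cells also make IKZF2, the ratio is not a level per T cell. NT5E, the ectoenzyme CD73 that makes adenosine, was divided between the cats, at 5.87, 3.05 and 8.72 FPKM in the lesions, against 1.99, 27.6 and 40.2 FPKM in healthy mucosa (adjusted p = 0.505).

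A receptor chain of IL10 also rose in lesions. IL10RA, the ligand-binding chain, was the only one of 13 listed genes of the IL10 pathway with a name. It measured 20.1, 32.8 and 27.2 FPKM in the lesions of Bart, Jerome and Sadie, against 5.32, 10.1 and 7.55 FPKM in their healthy mucosa (log2 difference 1.82, limma adjusted p = 0.027). The call held in 3 of the 9 fits that left out a library or a cat. It was lost with no filter on low values (limma adjusted p = 0.061). The FPKM of IL10RA was above that of IL10 in every library. The lesion of Bart was the lowest for the receptor and the highest for the ligand.

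Of 13 listed genes of TGF-beta activation, with which GARP acts, 3 had a name, none passed limma (all 3 at an unadjusted p under 0.05) and all 3 passed with the block, as did 12.2% of all identifiers and 68.9% of those named with a rise. TGFB3, a TGF-beta ligand, measured 26.8, 5.50 and 8.69 FPKM in the lesions of Bart, Jerome and Sadie, against 3.94, 2.13 and 3.94 FPKM in their healthy mucosa (log2 difference 1.76, adjusted p = 0.119). TGFBR2, the type II receptor, had a log2 difference of 1.84 (adjusted p = 0.110). NRROS, which holds latent TGF-beta on myeloid cells as GARP does on regulatory T cells, measured 4.13, 14.9 and 11.0 FPKM in the lesions, against 1.24, 4.96 and 3.16 FPKM in healthy mucosa (adjusted p = 0.152). TGFB3 was highest in the lesion of Bart, like LRRC32, and NRROS was lowest there among the lesions.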

How the data were processed

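RNA was measured in 6 libraries from 3 cats. The authors deposited FPKM per Ensembl identifier, 1 file per library. The tools were bcl2fastq, HISAT, Cufflinks and Cuffnorm, according to the submitters' processing notes. Their versions, the genome build and the gene models were not given in the sources used here, so no positions or sequences are printed. The labels give single reads and the paper paired reads; the values do not show which holds. Cuffnorm scales for length and library size before deposit, so levels can be compared between genes and no count model was used.

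Names came from 1981 rows of the study's supplementary gene table. The sorted values of each tissue, with the floor of 1, were found in a single identifier when compared to 5 significant digits, and 1929 of these had at least 3 values above the floor and a symbol not turned into a date. The last 328 rows of that table, which is ordered by fold and ends in falls, and its fold changes, were not used here. RefSeq's gene table matched 0 identifiers.

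The 13327 identifiers that reached 1 FPKM in 3 or more of the 6 libraries, all 4 genes among them, were tested two-sided with limma 3.58.1 (R 4.3.3) on log2 FPKM floored at 1, with tissue as the only term and a mean-variance trend. Replicates are separate cats. The labels state that a pair comes from the same animal, and deviations from the tissue means correlated within cats at 0.49 (Bart), 0.20 (Jerome) and 0.41 (Sadie). Blocked results are therefore given where they change a call of the 4 genes or their partners. Ratios were compared by exact permutation. Figures and joins used Python 3.11.15. The limma script was checked on simulated data. Alternatives were other offsets (0.1 or 1 FPKM added), filters, scalings, and leaving out each library or cat. These alternatives had tissue as the only term, without the block.

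The genes, lists and tests were chosen with earlier results of these data known. Named genes are the 4 genes, every named gene of 4 pathway lists, up to 4 per marker list, and the 5 named genes most like each of the 4, of which 1 is not reported here.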

Additional observations from a re-analysis of the deposited data

How the results depend on the processing

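Every alternative run kept the direction of the log2 difference of the 4 genes. With no filter on low values limma called 0 of the 4 (all 4 at an unadjusted p under 0.05), with IL10 at 2.48 (adjusted p = 0.055) and LRRC32 at 2.15 (adjusted p = 0.068); 18541 identifiers were then tested. With at least 1 FPKM required in all libraries only LRRC32 was tested, and 1 was called. The replicate block brought FOXP3, at 1.30, past the test and the partner genes to 14 higher and 1 lower; without the filter 2 partner genes were higher, and with 0.1 FPKM added in place of the floor 5, CTLA4 being lost. Leaving out 1 library, 0 to 2 of the 4 genes and 0 to 6 partner genes were called higher and 0 lower; leaving out a cat, 0 to 3 of the 4 genes and 0 to 12 partner genes were called higher and 0 to 1 lower. The log2 difference spanned, without 1 library and then without 1 cat, 2.09 to 2.74 and 2.11 to 2.86 for IL10, 1.79 to 2.38 and 1.96 to 2.34 for LRRC32, 1.56 to 2.44 and 1.39 to 2.31 for IL2RA, and 0.99 to 1.56 and 1.25 to 1.39 for FOXP3. Leaving out 1 library moved the log2 difference of the ratio to CD3 between -0.12 and 1.34 for IL10, -0.55 and 0.86 for LRRC32, -0.047 and 1.65 for IL2RA and -0.73 and -0.23 for FOXP3. The ratio of LRRC32 to CD3 was also below 0 (-0.14) without the healthy mucosa of Jerome. Relative to endothelial genes the spans were -0.18 to 0.79 for IL10, -0.54 to 0.12 for LRRC32, -0.30 to 1.20 for IL2RA and -1.87 to -0.27 for FOXP3, the changed signs being without the healthy mucosa of Bart (IL10, IL2RA) or of Sadie (LRRC32). With values floored at 1 the ratio of IL2RA to endothelial genes was -0.37. The cause of these changes was not tested. Each tissue has 3 cats, and the number of reads behind a value is unknown, so no counting interval can be given for values near 1 FPKM.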
